A study of Arabidopsis thaliana with 15 samples.

Results

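The large subunit of the cytosolic ribosome is described here through the genes of its proteins RPL3 to RPL24 in roots of Arabidopsis thaliana. The list held 60 genes in 24 families, chosen by locus tag. A gene was measured where the annotation of the array gave a probe set exactly 1 gene, and 35 of the 60 genes met that rule, each with 1 probe set, out of 13286 such genes on the array. Another 7 genes lay only on probe sets naming several genes, and 18 had no probe set named for them. The 35 measured genes came from 17 families. In 12 of these families at least 2 paralogues were measured, which gave 30 genes. RPL6, RPL8, RPL9, RPL13 and RPL18 were each seen through a single paralogue, and RPL3, RPL5, RPL10, RPL11, RPL21, RPL23 and RPL24 through none. Paralogue letters follow the usual Arabidopsis nomenclature, since the array annotation gives only locus tags for most of these genes.

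The large subunit joins amino acids at its peptidyl transferase centre and passes the growing chain through an exit tunnel, and its proteins hold the ribosomal RNA in shape. Plants encode nearly every one of these proteins in a small family of closely similar genes, and a ribosome takes 1 product of each family. Growing and dividing tissue is known to need new ribosomes, and plants with mutations in single large-subunit genes often show altered leaf and root development.

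Roots of Col-0 seedlings were profiled on Affymetrix ATH1 arrays in 5 groups of 3 arrays, from 3 independent experiments. All seedlings had germinated on 10 µM NPA, an inhibitor of auxin transport that blocks lateral root initiation, and were 3 days past germination. The groups were 2 h or 6 h on 50 µM naxillin, 2 h or 6 h on 10 µM NAA, and roots still on NPA before any transfer. NAA is a synthetic auxin, and naxillin is labelled as an inducer of lateral roots without auxin character. Each sample was RNA from 500 root sections with the meristems cut away. No roots were moved to fresh medium without a compound, so transfer and elapsed time cannot be told apart from the compound, and the compounds were given at different doses. In such bulk tissue, fewer cells of a type and less RNA per cell cannot be told apart.

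Values are log2 signals normalised by the authors, and a change is a difference of group means on that scale. A gene was called where limma's test gave an adjusted p under 0.05 over all 22746 probe sets. The median signal of the 35 genes was 10.97, 11.35 and 11.46 on the naxillin 2 h arrays and 11.01, 10.78 and 11.38 on the naxillin 6 h arrays. It was 11.50, 11.52 and 11.79 at NAA 2 h, 12.68, 12.68 and 12.67 at NAA 6 h, and 11.29, 11.14 and 11.47 before treatment. The NAA 6 h arrays stood above the other 12 arrays, the NAA 2 h arrays lay just above those before treatment, and both naxillin groups overlapped with them. Replicate 3 gave the highest signal of its group for 33 of 35 genes at naxillin 2 h, 34 at naxillin 6 h, 32 at NAA 2 h, 23 at NAA 6 h and 30 before treatment. The median SD of the genes was 0.28 at naxillin 2 h and 0.37 at naxillin 6 h, where the median over all probe sets was 0.13 in both. At NAA 6 h it was 0.11, equal to the 0.11 of all probe sets.

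**Figure D1:**
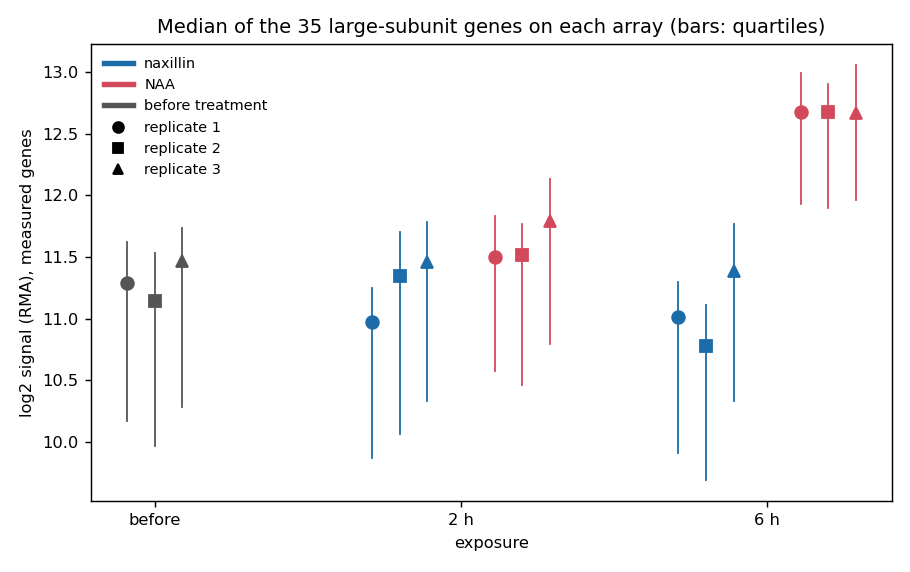
Median log2 signal (RMA, vertical axis) of the 35 measured large-subunit genes on each of the 15 arrays, by exposure, with bars from the lower to the upper quartile over the genes. The 3 NAA 6 h arrays lie at 12.67 to 12.68, above the other 12 arrays, and replicate 3 is the highest array in each of the other groups.

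After 6 h on NAA, 34 of the 35 genes rose against roots before treatment and none fell. The background was 22.8% of all probe sets called higher and 29.4% called lower. The median change was 1.44, a 2.71-fold rise, where the median over all probe sets was −0.03. Single genes ran from 0.24 to 2.88, and the arrays of the 2 groups did not overlap in 34 genes, where 26.1% of all probe sets lay wholly above. The gene that missed the call was RPL8B. Ranked by change among all 22746 probe sets, the median gene stood at percentile 93.8, and the genes ran from percentile 75 to 98.9. Leaving out any 1 array gave 34 or 35 genes called higher.

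**Figure D2:**
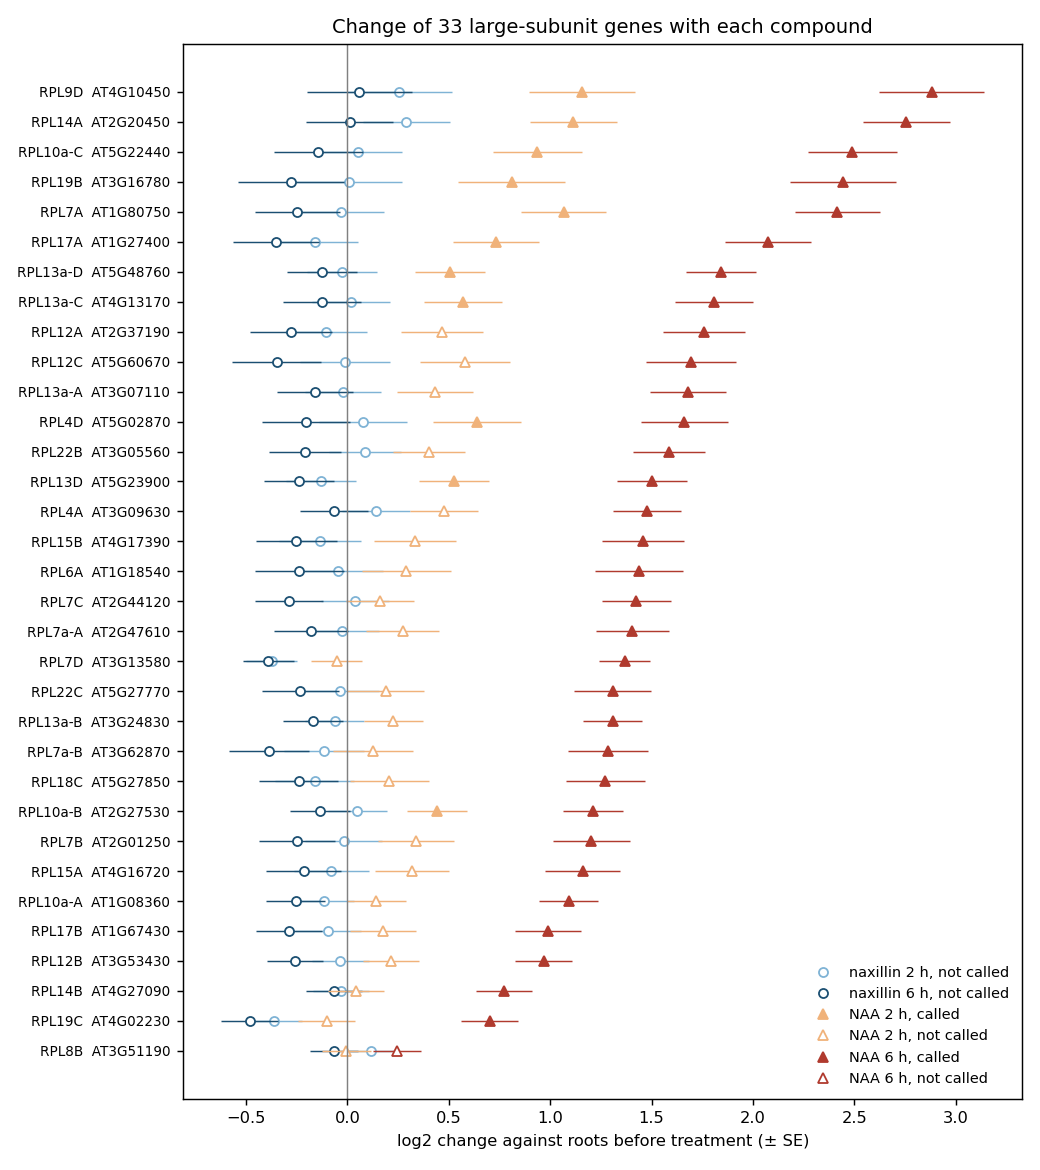
Log2 change against roots before treatment (horizontal axis, bars ± SE of the limma fit) of each of 33 genes, ordered by the change at NAA 6 h, for both compounds at 2 h and 6 h. Filled symbols are called genes: 32 at NAA 6 h, 11 at NAA 2 h and 0 at either naxillin time, where the symbols scatter about or just below 0.

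RPL4 and RPL17 proteins line the exit tunnel of the large subunit. RPL4D (AT5G02870), whose mutants have altered development, gave 13.07, 13.13 and 13.19 at NAA 6 h and 11.59, 11.14 and 11.67 before treatment. It rose by 1.66 (SE 0.22, adjusted p = 1.52e-05), and its paralogue RPL4A (AT3G09630) rose by 1.48 (SE 0.17, adjusted p = 4.31e-06). RPL17A (AT1G27400) gave 13.00, 13.18 and 13.06 at NAA 6 h against 10.96, 10.91 and 11.15 before treatment. Its rise of 2.07 (SE 0.21, adjusted p = 1.60e-06) was the sixth largest, and every NAA 6 h array lay above every array before treatment. RPL17B (AT1G67430) gave 13.20, 13.21 and 13.29 at NAA 6 h and 12.24, 12.05 and 12.44 before treatment, a rise of 0.99 (SE 0.16, adjusted p = 0.000131). The tunnel proteins therefore include both a gene from the upper end of the range of changes and one from the lower end.

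RPL10a forms the mobile L1 stalk, which releases spent transfer RNA, and RPL12 sits at the base of the stalk that binds elongation factors. RPL10a-C (AT5G22440) gave 11.65, 11.88 and 11.89 at NAA 6 h against 9.35, 9.13 and 9.47 before treatment. It rose by 2.49 (SE 0.22, adjusted p = 3.95e-07), a gap several times wider than the spread within either group. RPL10a-B (AT2G27530), known as PIGGYBACK1 from mutants that sharpen a leaf polarity defect, gave 12.42, 12.46 and 12.31 at NAA 6 h and 11.10, 11.14 and 11.32 before treatment, a rise of 1.21 (SE 0.15, adjusted p = 8.14e-06). RPL10a-A (AT1G08360) rose by 1.09 (SE 0.15, adjusted p = 1.92e-05). In the RPL12 family RPL12A (AT2G37190) and RPL12C (AT5G60670) rose by 1.76 and 1.69. RPL12B (AT3G53430) gave 12.57, 12.70 and 12.67 at NAA 6 h and 11.68, 11.56 and 11.80 before treatment, a rise of 0.97 (SE 0.14, adjusted p = 3.96e-05).

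RPL9 lies near the sarcin-ricin loop, where translation factors act, and RPL19 takes part in a bridge to the small subunit. RPL9D (AT4G10450) had the largest change, with 12.08, 12.01 and 12.25 at NAA 6 h against 9.37, 8.97 and 9.35 before treatment. That is a rise of 2.88 (SE 0.26, adjusted p = 4.89e-07), or 7.37-fold. RPL19B (AT3G16780) gave 11.38, 11.47 and 11.75 at NAA 6 h against 9.08, 8.95 and 9.24 before treatment, a rise of 2.44 (SE 0.26, adjusted p = 2.52e-06). RPL19C (AT4G02230) gave 12.06, 12.11 and 12.29 at NAA 6 h and 11.29, 11.49 and 11.58 before treatment. Its rise of 0.70 (SE 0.14, adjusted p = 0.000689) was the smallest among the called genes, though its groups too did not overlap.

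RPL8 reaches close to the peptidyl transferase centre, and its single measured paralogue, RPL8B (AT3G51190), was the exception. It gave 5.32, 5.32 and 5.19 at NAA 6 h and 5.21, 5.10 and 4.78 before treatment, so that the groups overlapped. The change was 0.24 (SE 0.12, 95% interval −0.01 to 0.50, adjusted p = 0.106). These signals lay near the lower quartile of the arrays, which was 4.69 to 4.80, whereas the other 34 genes had mean signals of at least 9.05 before treatment. The gene was called higher when arrays were centred on their medians (0.31, adjusted p = 0.0497), scaled on spike-in controls (0.49, adjusted p = 0.00287) or fitted without replicate 1 before treatment (0.33, adjusted p = 0.0439).

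RPL7 and RPL14 are core proteins of the subunit that bind its ribosomal RNA. RPL14A (AT2G20450) gave 11.91, 11.92 and 12.02 at NAA 6 h against 9.24, 8.99 and 9.37 before treatment, a rise of 2.76 (SE 0.21, adjusted p = 1.26e-07). RPL14B (AT4G27090) gave 13.01, 12.98 and 12.83 at NAA 6 h and 12.23, 11.92 and 12.35 before treatment, a rise of 0.77 (SE 0.14, adjusted p = 0.000275). Both paralogues were higher on every NAA 6 h array, by very different amounts. Among 4 RPL7 genes, RPL7A (AT1G80750) gave 11.38, 11.47 and 11.55 at NAA 6 h against 9.08, 8.92 and 9.14 before treatment, a rise of 2.42 (SE 0.21, adjusted p = 3.31e-07). RPL7B (AT2G01250), RPL7C (AT2G44120) and RPL7D (AT3G13580) rose by 1.20, 1.42 and 1.37. In the other families, the measured genes of RPL6, RPL7a, RPL13, RPL13a, RPL15, RPL18 and RPL22 rose by 1.16 to 1.84.

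**Figure D3:**
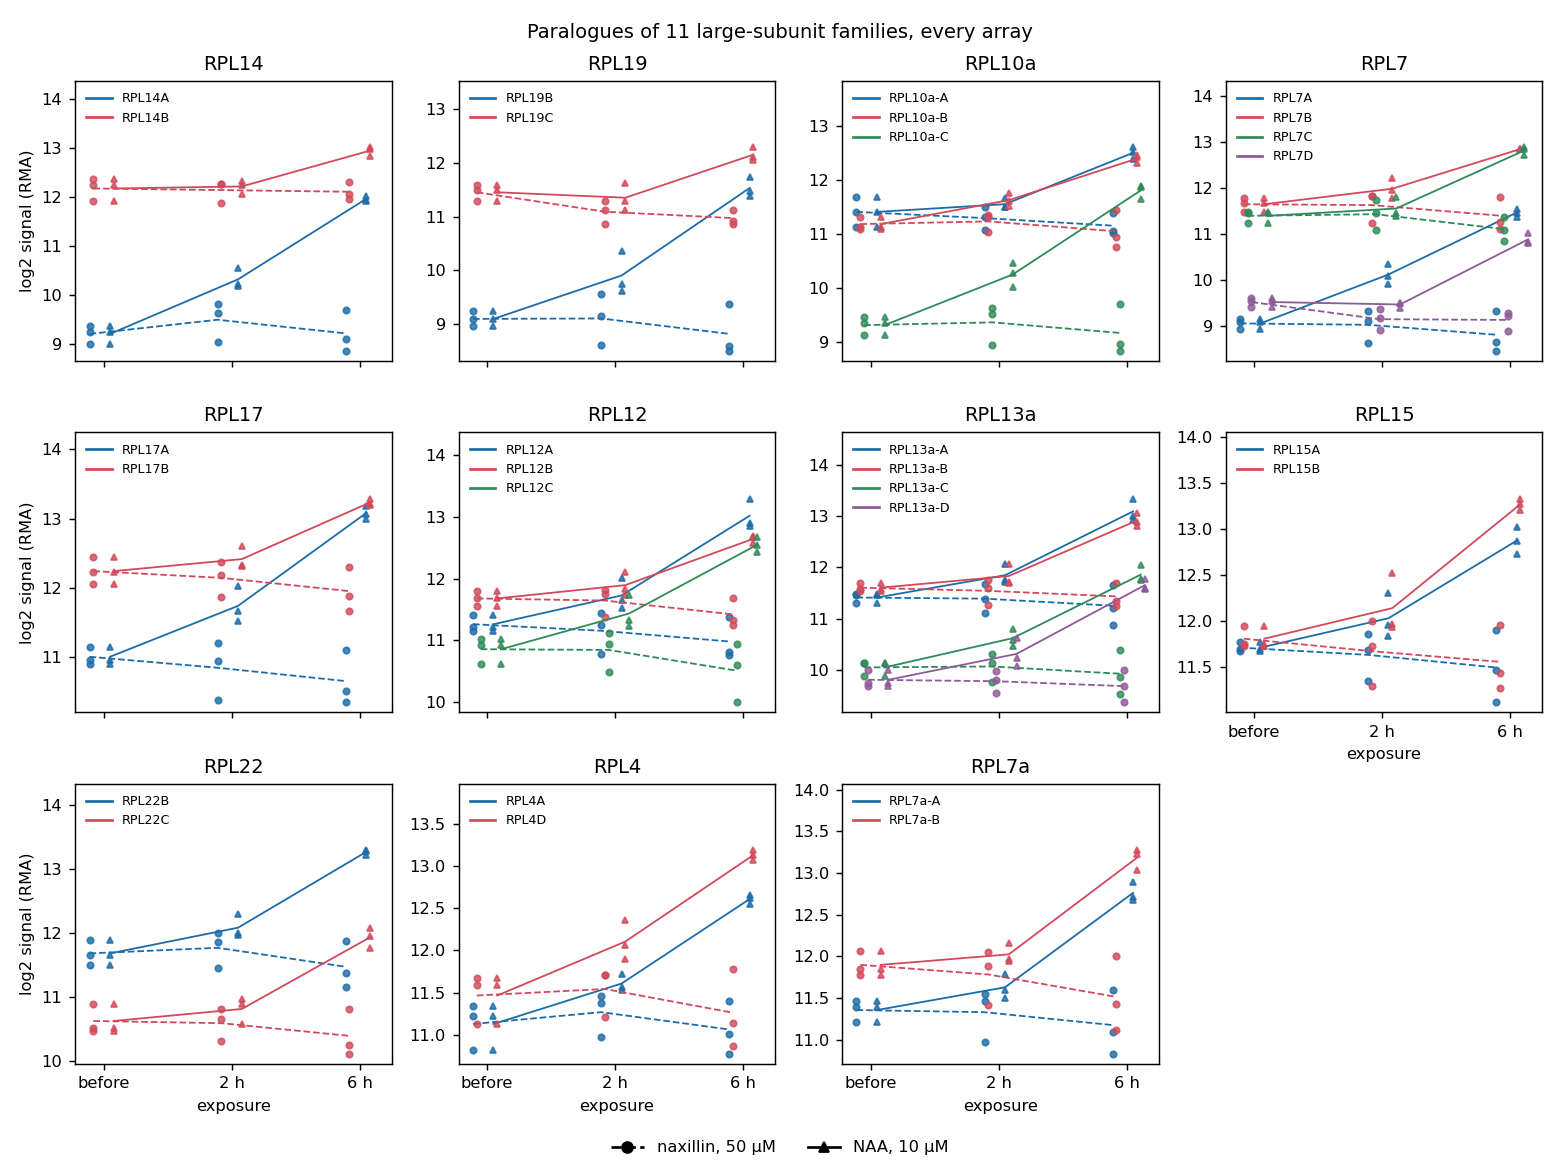
Log2 signal (RMA, vertical axes) of every array for the paralogues of 11 families with at least 2 measured genes, before treatment and after 2 h and 6 h on naxillin (circles, dashed lines through the means) or NAA (triangles, solid lines). At NAA 6 h all paralogues lie above their values before treatment, and in RPL14, RPL19 and RPL10a the dimmer probe set gains most.

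After 2 h on NAA, 11 of the 35 genes were called higher and 0 lower, where 10.5% of all probe sets were called higher and 15.3% lower. The median change was 0.34, with a range from −0.10 to 1.16, and 19 genes had all NAA 2 h arrays above those before treatment (15.5% of all probe sets did). RPL14A gave 10.17, 10.23 and 10.54 at NAA 2 h against 9.24, 8.99 and 9.37 before treatment, a rise of 1.11 (SE 0.21, adjusted p = 0.00179). RPL7A gave 9.91, 10.09 and 10.35 at NAA 2 h against 9.08, 8.92 and 9.14 before treatment, a rise of 1.07 (SE 0.21, adjusted p = 0.002). In both genes the groups were apart. RPL9D gave 10.05, 10.46 and 10.66 at NAA 2 h against 9.37, 8.97 and 9.35 before treatment, a rise of 1.16 (SE 0.26, adjusted p = 0.00486). RPL10a-C gave 10.28, 10.02 and 10.46 at NAA 2 h against 9.35, 9.13 and 9.47 before treatment, a rise of 0.94 (SE 0.22, adjusted p = 0.00632). These 4 genes stayed called whichever array of the comparison was left out. The other 7 called genes were RPL4D, RPL10a-B, RPL13D, RPL13a-C, RPL13a-D, RPL17A and RPL19B, and each lost its call in 3 to 6 of those 6 fits. The count of called genes was 7 without NAA 2 h replicate 2, 4 without NAA 2 h replicate 3, 5 without replicate 1 before treatment and 4 without replicate 2 before treatment. With a replicate number left out of all groups, 2 of the 4 genes named first lost the call in limma's test. RPL9D lost it without replicate 2 (adjusted p = 0.065). RPL10a-C lost it without replicate 1 (adjusted p = 0.052) and without replicate 2 (adjusted p = 0.055).

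RPL7D did not pass the test at NAA 2 h and rose by NAA 6 h. It gave 9.39, 9.50 and 9.49 at NAA 2 h and 9.41, 9.60 and 9.53 before treatment, which overlap, and then 10.83, 10.80 and 11.01 at NAA 6 h. Between the NAA time points, 6 h was called higher than 2 h in 34 of 35 genes and lower in 0 (background 19.9% and 21.6%), with a median change of 1.12. In all 35 genes every NAA 6 h array lay above every NAA 2 h array, as in 24.6% of all probe sets. RPL7D rose by 1.42 between them (SE 0.13, adjusted p = 1.12e-06). RPL14A rose by 1.64 (SE 0.21, adjusted p = 3.30e-05), RPL13a-D (AT5G48760) by 1.34 (SE 0.17, adjusted p = 2.87e-05) and RPL7C by 1.27 (SE 0.17, adjusted p = 3.85e-05). RPL8B was again the gene without a call, at 0.25 (adjusted p = 0.116).

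In the fit of all 15 arrays, without a replicate block or array weights, naxillin moved no gene past the test at either time. At 2 h, 0 of 35 genes were called higher and 0 lower (background 4.4% and 6.16%), and limma's test gave an unadjusted p under 0.05 for 2 genes. The median change was −0.03, equal to that of all probe sets, and the range was −0.37 to 0.29. At 6 h, again 0 genes were called higher and 0 lower (background 0.58% and 0.382%), with 2 genes at an unadjusted p under 0.05. The 6 h median was −0.24 against −0.03 over all probe sets, the range was −0.48 to 0.06, and 33 of 35 changes lay below 0. The 95% intervals of the 35 changes, not adjusted for their number, reached from −0.84 to 0.62 at 6 h. A fit with array weights called 8 genes lower at naxillin 6 h, and one with a replicate block called 2 genes lower at each time.

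The 2 genes nearest a call with naxillin were RPL7D and RPL19C, and both lay lower. RPL7D gave 8.90, 9.16 and 9.36 at naxillin 2 h and 8.88, 9.22 and 9.28 at naxillin 6 h, against 9.41, 9.60 and 9.53 before treatment. Every naxillin array of this gene lay below every array before treatment, and the changes were −0.37 at 2 h (SE 0.13, adjusted p = 0.0764) and −0.39 at 6 h (SE 0.13, adjusted p = 0.185). Naxillin 2 h arrays lay wholly lower in 1 of 35 genes and naxillin 6 h arrays in 2, where 17.9% and 11.4% of all probe sets did, and in 0 genes wholly higher, where 10.3% and 6.9% did. RPL19C gave 10.86, 10.92 and 11.13 at naxillin 6 h against 11.29, 11.49 and 11.58 before treatment, a change of −0.48 (SE 0.14, adjusted p = 0.14). Its change at 2 h was −0.36 (SE 0.14, adjusted p = 0.124). With a replicate block in limma's fit, both genes were called lower at both times, RPL7D with adjusted p = 0.0175 at 2 h and 0.0479 at 6 h, and RPL19C with adjusted p = 0.0174 at 2 h and 0.0159 at 6 h. Between 6 h and 2 h of naxillin 0 genes were called higher and 0 lower (background 0.813% and 1.47%), 0 genes had an unadjusted p under 0.05, and all 35 changes lay below 0 with a median of −0.19. In 0 genes were the arrays of the 2 times apart, where 8.91% of all probe sets were wholly higher at 6 h and 8.32% wholly lower. The genes with the smallest p there were RPL7C at −0.32 (SE 0.17, adjusted p = 0.418) and RPL22B (AT3G05560) at −0.30 (SE 0.18, adjusted p = 0.499). With array weights 12 genes were called lower between these times.

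The direct comparison at 6 h put all 35 genes lower on naxillin than on NAA, and 0 higher, where 23.5% of all probe sets were called lower and 27.2% higher. The median difference was −1.68, with a range from −2.82 to −0.31, so that the median gene was 3.20-fold lower on 50 µM naxillin than on 10 µM NAA. RPL14A gave 9.09, 8.85 and 9.69 at naxillin 6 h against 11.91, 11.92 and 12.02 at NAA 6 h, a difference of −2.74 (SE 0.21, adjusted p = 1.28e-07). RPL7A differed by −2.66 (SE 0.21, adjusted p = 1.31e-07), RPL10a-C by −2.63 (SE 0.22, adjusted p = 2.30e-07) and RPL7D by −1.76 (SE 0.13, adjusted p = 5.66e-08). In all 35 genes every naxillin 6 h array lay below every NAA 6 h array, as in 26.2% of all probe sets, and in 0 genes wholly above, as in 30.7%. RPL8B was the closest, at −0.31 (SE 0.12, adjusted p = 0.0433), and it lost its call without naxillin 6 h replicate 3, NAA 6 h replicate 1 or NAA 6 h replicate 2 (adjusted p up to 0.197).

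At 2 h, 6 genes were lower on naxillin than on NAA and 0 higher (background 8.68% lower and 7.39% higher), with a median difference of −0.37. RPL7A gave 8.62, 9.11 and 9.32 at naxillin 2 h against 9.91, 10.09 and 10.35 at NAA 2 h, a difference of −1.10 (SE 0.21, adjusted p = 0.00228). RPL17A differed by −0.89 (SE 0.21, adjusted p = 0.00974), RPL10a-C by −0.88 (SE 0.22, adjusted p = 0.0126) and RPL14A by −0.82 (SE 0.21, adjusted p = 0.0165). RPL9D and RPL13D (AT5G23900) were the other 2. The count was 2 without naxillin 2 h replicate 1, 12 without naxillin 2 h replicate 3 and 1 without NAA 2 h replicate 3. RPL17A was not called without NAA 2 h replicate 3, and RPL10a-C and RPL14A were called neither without that array nor without naxillin 2 h replicate 1.

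Whether the compounds differed in the change between 2 h and 6 h was tested as an interaction. It was called lower for naxillin in 34 of 35 genes and higher in 0, where 15.2% and 15.1% of all probe sets were called, and the median was −1.30. The interaction was −1.44 for RPL7D (SE 0.18, adjusted p = 5.84e-05), −1.59 for RPL7C (SE 0.24, adjusted p = 0.000246), −1.92 for RPL14A (SE 0.30, adjusted p = 0.000366) and −1.48 for RPL22B (SE 0.25, adjusted p = 0.000591). RPL22B gave 11.38, 11.16 and 11.88 at naxillin 6 h and 11.46, 11.86 and 12.00 at naxillin 2 h, while it gave 13.29, 13.22 and 13.31 at NAA 6 h and 11.97, 12.00 and 12.29 at NAA 2 h. Its NAA arrays separate by time and its naxillin arrays do not. Without replicate 1, 2 or 3 in all groups the interaction was called in 28, 15 and 34 genes.

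The size of the change at NAA 6 h varied among the paralogues of a family. The range of the NAA 6 h change within a family was 1.98 in RPL14, 1.74 in RPL19, 1.40 in RPL10a, 1.21 in RPL7 and 1.08 in RPL17. It was 0.79 in RPL12 and 0.53 in RPL13a, and it lay between 0.12 and 0.30 in RPL15, RPL22, RPL4 and RPL7a. To set the spread between arrays against these ranges, the difference between 2 paralogue probe sets was taken on each array. The gene with the larger NAA 6 h change was put first, so the upward direction of a shift at NAA 6 h follows from that order. Only its shift between groups is read, because the brightness of different probe sets is not on a common scale. Whether a probe set also picks up the transcript of a paralogue was not tested. RPL14A minus RPL14B was −1.10 to −0.81 at NAA 6 h against −2.99 to −2.92 before treatment, a shift of 1.98 (SE 0.09). RPL19B minus RPL19C was −0.68 to −0.55 at NAA 6 h against −2.54 to −2.21 before treatment, a shift of 1.74 (SE 0.10). For both pairs the arrays of the 2 groups were far apart. RPL7a-A (AT2G47610) minus RPL7a-B (AT3G62870) was −0.55 to −0.33 at NAA 6 h and −0.64 to −0.39 before treatment, which overlap.

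Over the 26 paralogue pairs, the differences did not overlap between NAA 6 h and before treatment in 15 pairs. That is 57.7% of the pairs within families, where the same held in 72.2% of the 569 pairs of measured genes from different families. The median size of the difference in NAA 6 h change was 0.42 within families and 0.48 between them. At NAA 2 h the differences were apart from those before treatment in 17 of 26 pairs, against 54.1% of pairs between families. At naxillin 6 h they were apart in 1 of 26 pairs, against 10.7% between families, and at naxillin 2 h in 5 of 26, against 19% between families. Between naxillin 6 h and NAA 6 h they were apart in 18 of 26 pairs, against 71.7% between families. An exact permutation test of 3 against 3 arrays, two-sided, cannot give a p below 0.1, so that test called no single pair.

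**Figure D4:**
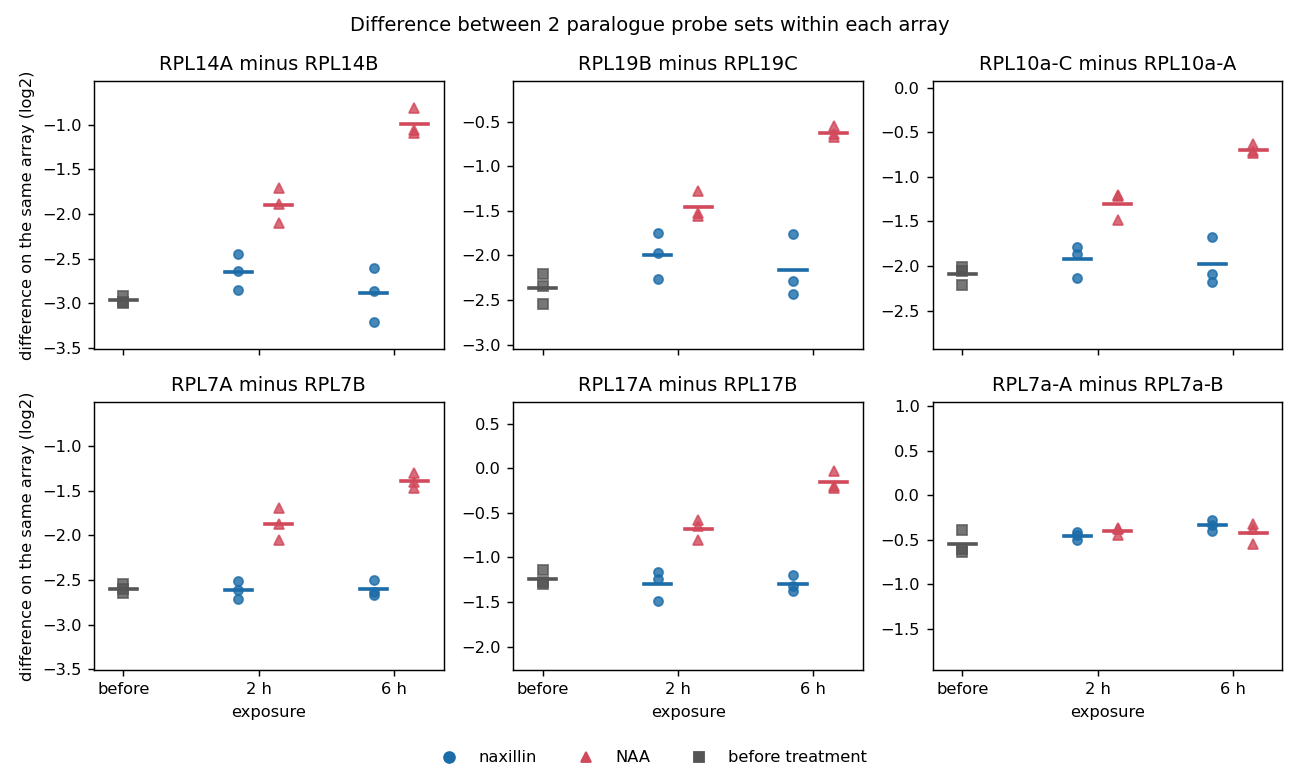
Difference between 2 paralogue probe sets on the same array (log2, vertical axis) for 6 pairs, before treatment and after 2 h and 6 h on naxillin or NAA, with bars at the group means. In 5 pairs the NAA arrays move up from the arrays before treatment, most in RPL14A minus RPL14B with a shift of 1.98 at 6 h, while RPL7a-A minus RPL7a-B overlaps between NAA 6 h and before treatment. The gene with the larger NAA 6 h change is written first. These 5 pairs are the largest against the smallest change of the 5 widest families, so their upward direction at 6 h is set by that choice.

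Genes with dimmer probe sets before treatment had larger changes at NAA 6 h. The order is one of probe set brightness and not of transcript amount. Of the 34 genes other than RPL8B, the 17 below their median signal of 11.37 before treatment had a median change of 1.76 at NAA 6 h, from 1.21 to 2.88. The 17 brighter genes had a median change of 1.27, from 0.70 to 1.68. Across these 34 genes Pearson's r between signal and change was −0.81 and Spearman's rho was −0.75, given as a description, since the change contains the signal before treatment with a minus sign and all points share the same arrays. With the naxillin 6 h signal, which shares no array with the change, r was −0.78 and rho −0.68. With RPL8B included, r between the signal before treatment and the change was −0.24 and rho −0.61. The SD of the mean signals over the 34 genes was 0.63 at NAA 6 h, 0.95 at naxillin 6 h and 0.98 before treatment. The brightest probe set of an array stood at 14.58 to 14.83, against at most 13.27 for the mean signal of any of these genes, and whether signals are compressed at this brightness was not tested.

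**Figure D5:**
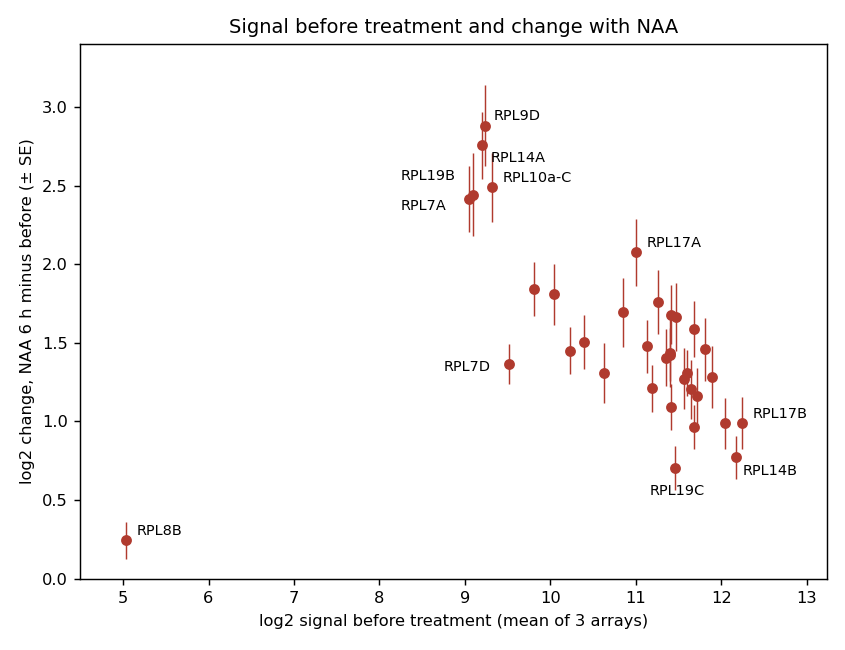
Log2 change at NAA 6 h against roots before treatment (vertical axis, bars ± SE of the limma fit) plotted on the mean log2 signal before treatment (horizontal axis) for the 35 genes. Apart from RPL8B, the 17 genes below a signal of 11.37 rose by 1.21 to 2.88 and the 17 brighter genes by 0.70 to 1.68, and RPL8B lies alone near a signal of 5.03.

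Other genes of protein synthesis were counted from lists by locus tag. Of the further large-subunit proteins, RPL26 to RPL40 and the P stalk proteins, 44 of 60 genes were measured. At NAA 6 h 42 of these were called higher and 0 lower, with a median of 1.43, near the 1.44 of the 35 genes. At NAA 2 h 13 were called higher. Of all probe sets, 22.8% were called higher at NAA 6 h and 10.5% at NAA 2 h. Naxillin moved 0 of the 44 past the test in either direction at 2 h or 6 h. Over all probe sets, naxillin gave 4.4% higher and 6.16% lower at 2 h, and 0.58% and 0.382% at 6 h. Of the factors that assemble the large subunit, 10 of 20 were measured, and all 10 were called higher at both NAA 2 h and NAA 6 h, with medians of 1.00 and 2.71. Examples at NAA 6 h were AT3G22660, at 3.10 (adjusted p = 2.02e-08), and AT5G14520, at 2.63 (adjusted p = 5.22e-08). At naxillin 2 h and 6 h 0 of the 10 were called. Both measured elongation factors of 14 listed rose at NAA 6 h, AT5G19510 by 0.74 (adjusted p = 1.82e-05) and AT5G12110 by 1.07 (adjusted p = 0.00307).

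Ribosomal proteins of the plastid, whose large subunit is of the bacterial kind, had no member called higher than before treatment at any time with either compound. Of the plastid large-subunit list, 6 of 22 genes were measured. All 6 fell at NAA 2 h, with a median of −0.57, and 3 fell at NAA 6 h, where the median was −0.19. Of all probe sets, 15.3% were called lower at NAA 2 h and 29.4% at NAA 6 h. At naxillin 2 h 3 of the 6 were called lower, with a median of −0.46, where 6.16% of all probe sets were. At naxillin 6 h 0 were called in either direction, with a median of −0.13 (background 0.58% higher and 0.382% lower). AT3G54210 changed by −0.56 at NAA 6 h (adjusted p = 0.000486), −0.54 at NAA 2 h (adjusted p = 0.00204) and −0.48 at naxillin 2 h (adjusted p = 0.0134). Of the TOR and S6 kinase pathway, which links nutrients and auxin to translation, only RAPTOR1 (AT3G08850) of 8 genes was measured, and it was not called at NAA 6 h (−0.15, adjusted p = 0.316).

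Markers of other cells moved in the same samples, and their part in the results was not tested. Of 5 genes of dividing cells the 2 mitotic kinases AUR1 and AUR3 were measured. AUR3 (AT2G45490) gave 7.78, 7.30 and 8.09 at NAA 6 h and 5.53, 5.54 and 5.47 before treatment, and AUR1 (AT4G32830) gave 10.00, 9.54 and 10.28 at NAA 6 h and 8.08, 7.85 and 8.08 before treatment. Both were called higher at NAA 6 h and in 0 of the other 3 comparisons with roots before treatment. Of 5 shoot markers, the photosynthesis genes LHCB4.2 (AT3G08940) and RCA (AT2G39730) were measured, and LHCB4.2 gave 4.96, 5.57 and 5.27 at NAA 6 h and 8.39, 8.70 and 8.02 before treatment. Both were called lower at naxillin 2 h, NAA 2 h and NAA 6 h. The expansins EXPA7 (AT1G12560) and EXPA18 (AT1G62980), of 3 root hair markers, were called higher at naxillin 2 h, by 1.57 and 1.44 with the arrays apart, and lower at NAA 6 h, with changes of −1.13 and −1.15. At NAA 2 h EXPA7 was also called higher, by 1.02 (adjusted p = 0.0196), and the change of EXPA18 was 0.80 (adjusted p = 0.0715). Neither gene passed the test of naxillin 2 h against NAA 2 h (adjusted p = 0.256 and 0.194). Markers of endodermis, phloem, xylem and root meristem were not measured, so the cut that removed the meristems could not be checked.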

How the data were processed

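RNA of 15 root samples was measured on Affymetrix ATH1 arrays. The deposited values were log2 signals of 22810 probe sets, made by the authors with RMA in affy 1.36.0, per the submitters' processing notes; a genome build is not given in the sources used here. They were used unchanged. After leaving out 64 control probe sets, 22746 were tested; 13513 named 1 gene, 503 several and 8730 none. For each gene the probe set with the highest mean stood. One linear model with 5 group means (10 residual degrees of freedom) was fitted with limma 3.58.1 in R 4.3.3, two-sided, with Benjamini-Hochberg adjustment over all probe sets; SE is the moderated one. It was tested on 3 simulated sets with 200 changed probe sets each, for NAA 6 h against before treatment. It called 47.8% of log2 changes of 0.5, 89.6% of those of 1 and 99.5% of those of 2. Of its calls 5.35% were false. These rates describe the simulated sets only. In the data, 22.8% of probe sets were called higher and 29.4% lower at NAA 6 h. The median SD of the measured large-subunit genes was 0.28 at naxillin 2 h and 0.37 at naxillin 6 h, against 0.13 over all probe sets. Recovery and false calls were not estimated for these conditions. Figures used Python 3.11.15 and matplotlib 3.10.9. The number of arrays limits the precision. The members and lists were chosen with earlier results of these data known. Named genes were the 6 largest and 6 smallest changes at NAA 6 h, up to 4 called genes (otherwise 2) in each other contrast, the paralogues of the 5 widest families, the 3 brightest and 3 dimmest probe sets, and members known from mutants; other names were chosen after their values were seen. Alternatives were a replicate block, array weights, another spread prior, further normalization, median centring, no dim probe sets, only the arrays of a contrast, only probe sets without a shared-probe suffix, the mean of probe sets, and each array left out. Scaling on 27 poly-A spike-in probe sets and leaving out a replicate number in all groups were chosen after seeing the data. Values of 2 genes are not reported here and they are left out of the plots that name genes, though they are in the counts. No sequence was used here.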

Additional observations from a re-analysis of the deposited data

Results flagged for a closer look

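The change between 2 h and 6 h differed between the compounds by the test of the interaction in 34 of the 35 genes, lower for naxillin in each. Of all probe sets, 15.2% were called lower for naxillin in that test. The interaction was −1.44 for RPL7D, −1.59 for RPL7C, −1.92 for RPL14A and −1.48 for RPL22B. In the direct comparison of the compounds, 6 genes were lower on naxillin than on NAA at 2 h and 35 at 6 h. Of all probe sets, 8.68% were called lower at 2 h and 23.5% at 6 h. The count at 2 h ran from 1 to 12 when 1 array was left out.

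The 4 probe sets that name several genes, and so stood outside every comparison, carried a signal of their own. Against roots before treatment the set naming 2 RPL21 genes changed at NAA 6 h by 1.55. Another set, naming 2 genes of which 1 was a listed RPL21 gene, changed by 1.47. The changes were 1.09 for the set naming 2 RPL6 genes and 0.76 for the set naming 2 RPL9 genes. In all 4 the NAA 6 h arrays lay above every array before treatment, as in 26.1% of all probe sets. They are not assigned to a single gene.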

How the results depend on the processing

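Counts of called genes at NAA 6 h, and between the compounds at 6 h, were 34 or 35 under all alternatives run. RPL8B was the gene that differed, or was left out as dim. The mean of probe sets and the limit to sets without a shared-probe suffix could not change the log2 values of the 35 genes. Each gene had 1 probe set, and none of these sets had that suffix. The counts at 2 h and with naxillin depended on the fit. With a replicate block 17 genes were called higher at NAA 2 h (11 without it), 19 were lower at naxillin 2 h than at NAA 2 h (6 without it), and 2 were lower than before treatment at each naxillin time (0 without it). Array weights gave 8 lower at naxillin 6 h, 10 lower at naxillin 2 h than at NAA 2 h, and 12 lower at naxillin 6 h than at naxillin 2 h. Leaving out 1 array gave 4 to 9 genes higher at NAA 2 h, 1 to 12 lower at naxillin 2 h than at NAA 2 h, 0 to 1 lower at naxillin 2 h than before treatment, and 16 to 19 paralogue pairs without overlap at NAA 6 h, where fewer arrays leave less room to overlap. Leaving out replicate 1, 2 or 3 in all groups gave 3, 2 and 9 genes higher at NAA 2 h. In that order it gave 0, 3 and 12 lower at naxillin 2 h than at NAA 2 h, and 28, 15 and 34 in the interaction. The median change at naxillin 2 h was −0.03, but 0.0162 with median centring and 0.0314 with spike-in scaling. That scaling moved the NAA 6 h median to 1.68, where the median of all probe sets was 0.21, the naxillin 6 h minus NAA 6 h median to −1.98 and the interaction median to −1.59. The cause of these shifts was not tested.

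Same-numbered arrays are not stated to be paired. Their deviations from the group means correlated at −0.23 to 0.64 over 30 pairs (median 0.22, 23 above 0.1, against a median of −0.14 between other numbers), and 11 of 15 arrays correlated best with their own number, a hint from the data and not the design. Values of single genes were counted over the alternatives only in the comparisons for which a gene was named by rule. Of these values, 853 kept direction and side of the threshold, 12 gained the call and 13 lost it. Calls of other genes are outside these counts. RPL10a-B, for example, lost its call at NAA 2 h in 5 of the 6 fits with an array left out. Of the medians over the genes, 22 kept direction and moved by less than the spread between replicates, and the other values are given above.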

Other observations

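At naxillin 6 h the 4 probe sets that name several genes also had lower mean signals than before treatment. Whether these differences pass a test, or the arrays are apart, was not examined. The median over the 35 genes there was −0.24, with 0 genes called. The changes were −0.29 and −0.27 for the sets with an RPL21 gene, −0.18 for RPL6 and −0.30 for RPL9. The mean signal of the poly-A spike-in controls was 7.33 to 7.44 on the NAA 6 h arrays and 7.59 to 7.63 before treatment. It was 7.61 to 7.74 at naxillin 6 h, 7.54 to 7.57 at naxillin 2 h and 7.48 to 7.59 at NAA 2 h. LHCB4.2 had its lowest array in replicate 3 at naxillin 2 h, naxillin 6 h, NAA 2 h and before treatment, where replicate 3 gave most of the 35 genes their highest signal. Whether these go together was not tested.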
